A study of Mus musculus with 2 samples.

Results

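Krüppel-like factors (KLF) and SP factors are transcription factors that end in a tract of 3 zinc fingers and bind GC boxes and the related CACCC boxes of promoters and enhancers. The genes described here are 10 members of this family, Klf1, Klf2, Klf3, Klf4, Klf6, Klf9, Klf10, Klf13, Sp1 and Sp3. They were taken as a list of names and matched to the 43346 Ensembl genes of the deposited tables through the GENCODE annotation, and all 10 were found. Levels were read in 2 libraries of total RNA, depleted of ribosomal RNA, from G1E-ER4. This is 1 immortalised mouse line (male, strain C57BL/6J, labelled postnatal, 0 day) that lacks functional chromosomal Gata1 and carries the factor fused to the ligand-binding part of the oestrogen receptor. It is a clone of G1E cells. Both cultures were grown for 24 h with 17beta-estradiol at 10 nM, which turns the fusion on and drives erythroid maturation. The libraries are biological replicates 1 and 2 per the labels, and since no untreated library was analysed here, no value below is a response to estradiol.

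KLF1 is the erythroid member of the family and activates adult beta globin through its CACCC box. KLF3, which KLF1 is known to activate in red cell precursors, is a repressor that works with CtBP proteins at similar sites. SP1 and SP3 are found in nearly all cells and bind GC boxes, so several members compete for overlapping sets of sequences. KLF2 and KLF4 are best known from endothelium, lymphocytes, monocytes and stem cells.

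The libraries held 62081014 and 41051163 expected counts in replicates 1 and 2. An expected count is an estimate of the reads of a gene, and TPM, the usual measure of transcript abundance, divides it by the length of the transcripts and by the library. All 10 erythroid markers listed were at 1 TPM or more in both libraries. Hbb-bs, Hba-a2, Tfrc and Alas2 were the highest, and Epor, Slc4a1 and Rhag the lowest, between 2.14 and 5.37 TPM. No lymphoid marker (0 of 10), endothelial or stromal marker (0 of 8) or pluripotency marker (0 of 6) reached 1 TPM in both libraries. Of the others, 1 of 10 myeloid (Spi1) and 3 of 8 megakaryocyte markers did. The summed megakaryocyte markers were at 11.3 and 13.8 TPM, led by Tubb1 at 6.77 and 9.64 TPM. The lists were chosen with earlier results of these data known, so these counts are not an independent check of the erythroid label. Of all 21461 nuclear protein-coding genes, 36.3% reached 1 TPM in both libraries. All such genes together held 14.1% and 14.4% of TPM in replicates 1 and 2. Levels here therefore read lower than on a scale of coding genes alone.

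The zinc finger stretch is what makes these genes a family, and it shows which members are close. The stretches below code for the middle finger of 7 members, read from the GENCODE M21 transcripts (build GRCm38) and shown because this finger contacts the centre of the binding site. Capitals mark the bases that differ from Klf1.
Klf1: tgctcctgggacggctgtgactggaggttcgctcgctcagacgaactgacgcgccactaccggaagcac
Klf2: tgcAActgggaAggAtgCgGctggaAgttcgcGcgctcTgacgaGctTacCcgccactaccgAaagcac
Klf3: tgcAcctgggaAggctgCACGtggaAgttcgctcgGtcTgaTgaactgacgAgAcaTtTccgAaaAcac
Klf6: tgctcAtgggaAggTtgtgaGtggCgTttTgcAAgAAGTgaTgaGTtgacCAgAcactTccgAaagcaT
Klf13: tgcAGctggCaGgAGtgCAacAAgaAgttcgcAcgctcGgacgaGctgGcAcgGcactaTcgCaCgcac
Sp1: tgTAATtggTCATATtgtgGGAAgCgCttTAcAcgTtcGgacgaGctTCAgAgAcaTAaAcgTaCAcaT
Sp3: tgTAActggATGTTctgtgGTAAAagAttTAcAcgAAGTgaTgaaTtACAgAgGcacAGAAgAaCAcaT
Klf2 differed from Klf1 at 13 of 69 bases, Klf3 at 16, Klf13 at 20 and Klf6 at 22. Sp1 and Sp3 differed at 34 and 36 bases. Over the 243 bases that code for all 3 fingers, the 45 pairs of members were 49.0% (Klf1 and Sp3) to 78.2% (Klf2 and Klf4) identical, with a median of 60.5%. Klf1 was 74.9% identical to Klf2 and 67.5% to Klf3, and Sp1 was 73.3% identical to Sp3. The longest run of bases that any pair of members shared anywhere in their longest transcripts was 21 bases.

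Klf1 was the most abundant member. It stood at 28.1 TPM in replicate 1 and 27.6 TPM in replicate 2 (mean 27.8 ± 0.389, SD, n = 2), from 7679 and 5155 counts (ENSMUSG00000054191.7, GRCm38 chromosome 8, 84901928 to 84905291, plus strand). Only 1 transcript of Klf1 is in the tables. Klf6, a broadly expressed factor with growth-suppressing roles, followed at 25.5 and 24.4 TPM (mean 24.98 ± 0.792) from 21041 and 13892 counts (chromosome 13, 5861482 to 5870394). Klf1 lay above 95.5% of protein-coding genes and Klf6 above 94.9%.

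Klf2 and Klf4 were at or near 0. Klf2 had 2 counts in replicate 1 and 0 in replicate 2 (chromosome 8, 72319033 to 72321656), which gave 0.01 and 0 TPM. Klf4 had 0 counts in both libraries (chromosome 4, 55527143 to 55532466). The deposited upper credible bounds for Klf4 were 0.0578 and 0.0867 TPM, and a count of 0 allows up to 3 counts in each library. That limit covers counting error only, since the reads carried no molecular identifiers. Summed markers of endothelium and stroma, of lymphocytes and of stem cells were at 0.11 TPM or less per list, while summed myeloid markers were at 2.30 and 3.01 TPM, led by Spi1 at 1.78 and 1.22 TPM. The part of any of these cell types in the levels of Klf2 and Klf4 was not tested. In bulk RNA, fewer cells of a type and less RNA per cell cannot be told apart.

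The promoters of Klf1 and Klf2 are shown because these genes of the same chromosome and closely related fingers stood at opposite ends of the range. The stretches end just before the first annotated exon and come from RefSeq (build GRCm38.p6), plus strand, chr8:84901732-84901927 for Klf1 and chr8:72318812-72319032 for Klf2. Capitals mark matches on either strand to GGGCGG (a GC box), CCNCNCCC (a CACCC-like box, which can overlap a GC box) or GATAA (the core of a GATA site).
Klf1: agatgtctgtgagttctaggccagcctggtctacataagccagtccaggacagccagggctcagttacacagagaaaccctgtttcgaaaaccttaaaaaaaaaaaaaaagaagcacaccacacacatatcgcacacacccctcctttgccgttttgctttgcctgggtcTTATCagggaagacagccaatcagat
Klf2: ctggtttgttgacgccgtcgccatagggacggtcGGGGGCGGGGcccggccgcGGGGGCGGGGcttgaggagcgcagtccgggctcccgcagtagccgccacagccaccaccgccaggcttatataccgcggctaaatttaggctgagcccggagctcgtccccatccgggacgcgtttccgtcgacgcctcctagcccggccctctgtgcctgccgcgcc
The Klf1 stretch of 196 bases held 1 GATAA match and no match to either of the other patterns. It does hold the letters CACCC, at a place that CCNCNCCC does not match. The Klf2 stretch does not hold the letters CACCC on either strand. The Klf2 stretch of 221 bases held no GATAA match, 2 GC boxes and 4 CACCC-like matches that overlap them, and its GC content was 71.5% against 46.9% for Klf1. Among 32851 RefSeq windows of 250 bases before a start, 22.6% held GATAA, 32.7% GGGCGG and 45.9% CCNCNCCC. A match describes letters and does not show that a factor binds there.

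**Figure D1:**
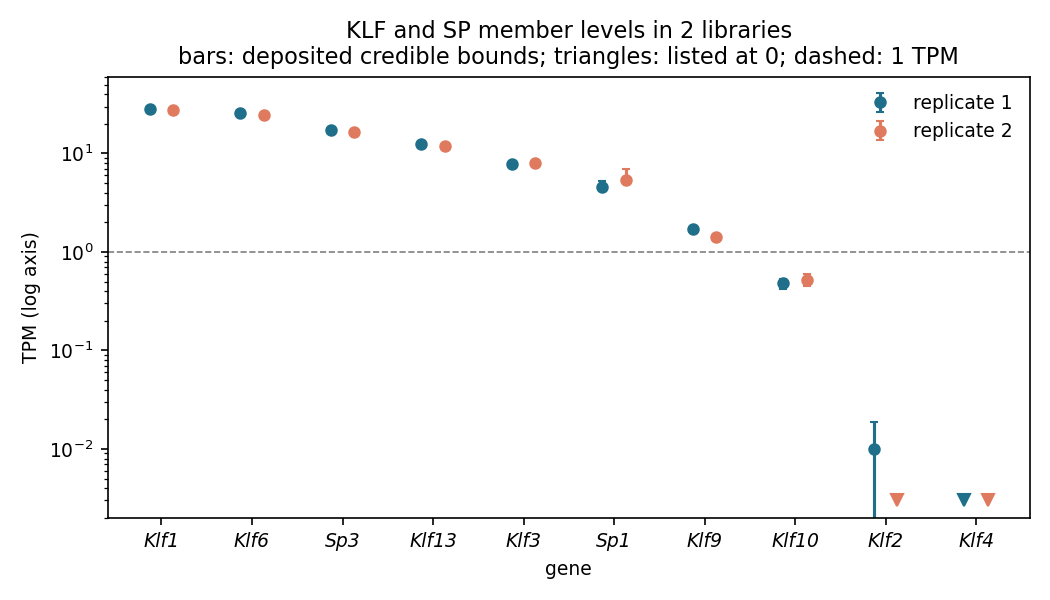
TPM of the 10 members (log axis) in replicate 1 (blue) and replicate 2 (orange), with the deposited credible bounds as bars and triangles for values listed at 0. Klf1 and Klf6 lie near 25 to 28 TPM, 7 members lie above the dashed line at 1 TPM, and Klf2 and Klf4 lie at or near 0.

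Klf1 was the highest member by TPM, so the members known as repressors lay below it like all others. Klf3 was at 7.81 and 7.96 TPM (mean 7.89 ± 0.106) from 3282 and 2338 counts (chromosome 5, 64803388 to 64832901), so Klf1 exceeded it 3.53-fold (log2 ratio 1.82 ± 0.04, n = 2), or 2.27-fold on counts not divided by length. Klf13, which recruits the SIN3 corepressor and also activates genes in T cells, was at 12.4 and 11.99 TPM (mean 12.2 ± 0.318; chromosome 7, 63886351 to 63938915, minus strand). Klf9, a repressor gene induced by glucocorticoid and thyroid hormone, was at 1.70 and 1.42 TPM (mean 1.56 ± 0.198) from 1067 and 617 counts (chromosome 19, 23141226 to 23168134). Klf10, an early response gene of TGF-beta that also uses SIN3, was under 1 TPM in both libraries, at 0.48 and 0.52 TPM (mean 0.50 ± 0.0283) from 279 and 211 counts (chromosome 15, 38291463 to 38300706, minus strand). Klf13 stood 7.86-fold above its near relative Klf9, whose finger stretch was 72.8% identical, and 4.61-fold above it with the main transcript Klf13-201 alone.

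Of the SP pair, Sp3 was the higher. Sp3 was at 17.5 and 16.5 TPM (mean 17.0 ± 0.742) from 10643 and 7494 counts (chromosome 2, 72936427 to 72980446, minus strand). Sp1 was at 4.57 and 5.44 TPM (mean 5.01 ± 0.615) from 6941 and 5170 counts (chromosome 15, 102406143 to 102436404). Sp3 was above Sp1 in both libraries, with a mean log2 ratio of 1.77 ± 0.24. That ratio was 0.58 ± 0.23 with coding-typed transcripts alone and 0.58 ± 0.06 on counts not divided by length.

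By TPM the members ran, from high to low, Klf1, Klf6, Sp3, Klf13, Klf3, Sp1, Klf9 and Klf10, followed by Klf2 and Klf4. Every neighbouring pair among the first 8 (7 of 7) kept its direction in both libraries with a mean log2 ratio larger than its SD. The order was set by the mean TPM of these same 2 libraries, so 7 of 7 is not an independent check. The deposited credible bounds of TPM, whose level is not given in the sources used here, were also apart in both libraries for 7 of 7 pairs. The narrowest step on TPM, in both libraries, was Klf1 over Klf6, at 1.11-fold (log2 0.16 ± 0.03). Sp1 over Klf9 was at 3.21-fold (log2 1.68 ± 0.36) and Klf9 over Klf10 at 3.11-fold (log2 1.64 ± 0.27), and which of these was wider differed between the libraries. With 2 libraries an exact two-sided sign-flip test cannot give a p under 0.5, so the order is a description. Where nothing but the labels says that the cultures were separate, the SD may be technical in part.

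The order rests in part on length. On expected counts not divided by length, Klf6 exceeded Klf1 (log2 ratio of Klf1 to Klf6 -1.44) and Sp1 exceeded Klf3 (log2 ratio of Klf3 to Sp1 -1.11). Sp3 and Klf13 also had more counts than Klf1 in both libraries. The gene models also matter. The Klf3-201 transcript was 2314 bases long in the deposited tables and is 5221 bases in GENCODE M21, and Klf9-201 went from 3263 to 4486 bases, so reads from the added parts were not in the deposited values. For Klf1, Klf6, Klf10 and Klf13 the main transcript changed by at most 8 bases (4217 to 4225 for Klf6).

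**Figure D2:**
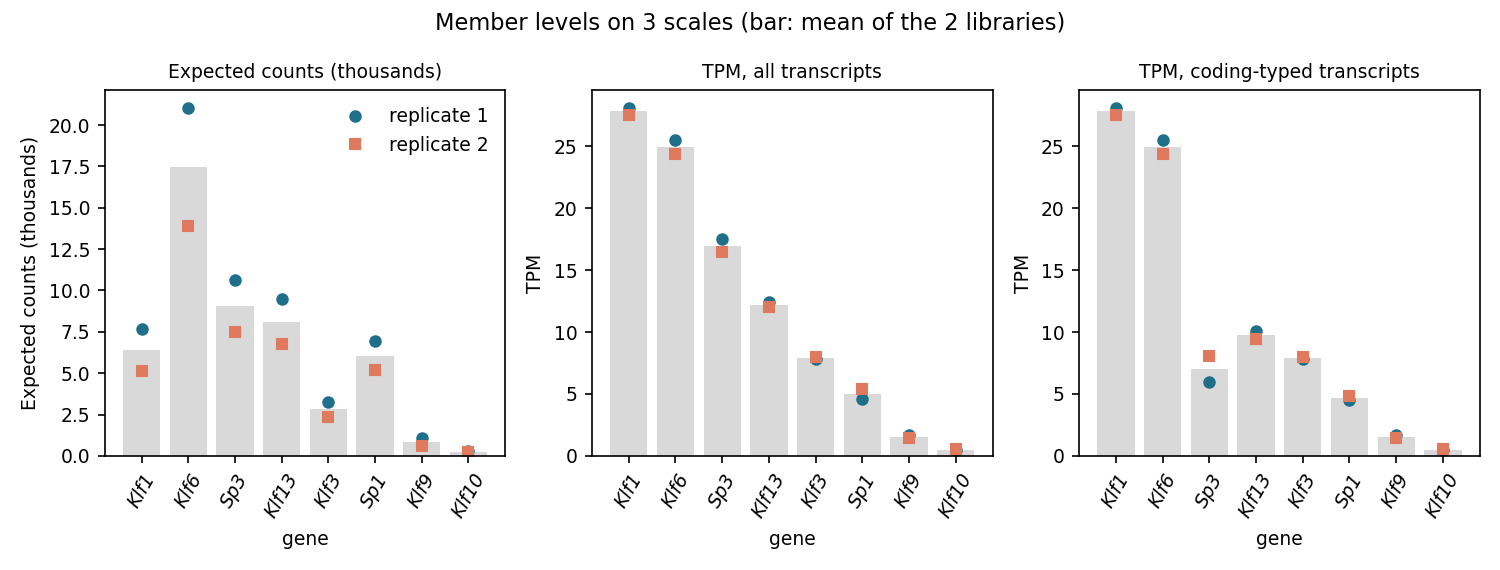
Levels of the 8 members with at least 100 counts per library on the scale of expected counts, divided by 1000 (left), TPM over all transcripts (middle) and TPM over transcripts typed as protein coding (right); bars are means of the 2 libraries and points the libraries. Klf6 leads on counts and Klf1 on TPM, and Sp3 falls from 17.0 to 7.03 TPM when only coding-typed transcripts are kept.

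Sp3 was the member with the smallest share of TPM on any 1 transcript, 42.2% and 34.4% on Sp3-204. The sequences before an upstream and a downstream start are shown because transcripts that begin there took most of its counts. They come from RefSeq (build GRCm38.p6) on the minus strand, chr2:72980447-72980696 for the upstream start and chr2:72979287-72979423 for the downstream start, and capitals mark the same motifs as above.
Sp3 upstream start: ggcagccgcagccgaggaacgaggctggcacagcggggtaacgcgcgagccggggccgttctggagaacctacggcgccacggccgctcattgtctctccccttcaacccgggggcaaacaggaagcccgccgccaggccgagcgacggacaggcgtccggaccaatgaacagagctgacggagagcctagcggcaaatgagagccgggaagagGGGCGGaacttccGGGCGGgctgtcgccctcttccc
Sp3 downstream start: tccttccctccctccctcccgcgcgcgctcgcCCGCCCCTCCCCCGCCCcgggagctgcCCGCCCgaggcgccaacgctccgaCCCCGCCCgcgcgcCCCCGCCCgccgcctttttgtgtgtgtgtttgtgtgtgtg
The upstream stretch of 250 bases held 2 GC boxes and no CACCC-like match, and the downstream stretch of 137 bases held 5 of each, counted with overlaps. Transcripts Sp3-201 and Sp3-202, which begin at the upstream start and are typed as protein coding, took 44.2% and 58.5% of the gene's counts in replicates 1 and 2. Sp3-204, typed as a processed transcript, begins at 72979286, in intron 2 of Sp3-202 and 1160 bases after its start, and took 52.2% and 39.2% of the counts. These shares come from the authors' estimate over whole transcripts and are not counts of read ends at a start.

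By TPM, coding-typed transcripts held 34.1% and 49.1% of Sp3, or 5.98 and 8.08 TPM (mean 7.03 ± 1.48). On that scale Sp3 fell below Klf13, which kept 10.1 and 9.46 TPM, in both libraries. The 2 short Sp3 forms, Sp3-203 and Sp3-205, held 5.81% and 17.9% of TPM in replicate 1 and 9.48% and 7.05% in replicate 2 on 71.9 to 291 counts each. Sp3os, an antisense gene that shares 109 exon bases with Sp3, was at 1.40 and 0.93 TPM. Whether strand was used in the counting is not given in the sources used here, so reads of the overlap cannot be told apart.

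Klf13 showed how much a short transcript can weigh in TPM. Klf13-201, the full-length form, took 94.4% and 94.9% of the gene's counts but 56.8% and 60.7% of its TPM. The rest lay mostly on Klf13-203, annotated as a retained intron (18.9% and 21.1% of TPM, from 353 and 257 counts), and on Klf13-204 (24.0% and 18.2%, from 174 and 83.3 counts). Both start in intron 1 of Klf13-201, 2583 and 2614 bases after its start. The retained-intron share of 20.0% compared with a median of 11.7% among 3485 expressed coding genes that have such a transcript, 68.0% of which lay below Klf13. With Klf13-201 alone the gene stood at 7.06 and 7.28 TPM, against 7.16 and 7.64 TPM for Klf3-201 alone, so the order of Klf13 and Klf3 turned (log2 ratio -0.0450).

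Klf3 and Sp1 were each carried by 1 main form. Klf3-201 took 94.5% and 97.4% of the gene's counts. Gm20033, an antisense gene that shares 404 exon bases with Klf3, had 8 and 0 counts. Klf3-202, which starts 8951 bases downstream in intron 1 at 64812339, took 5.49% and 2.56%, from 180 and 59.8 counts. Sp1-201 took 99.9% and 99.8% of the counts of Sp1. A short Sp1 transcript that GENCODE M21 does not list, 353 bases long, had 2.88 and 12.3 counts and yet 2.01% and 11.6% of the gene's TPM. Without it Sp1 was at 4.48 and 4.81 TPM (mean 4.65 ± 0.233).

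**Figure D3:**
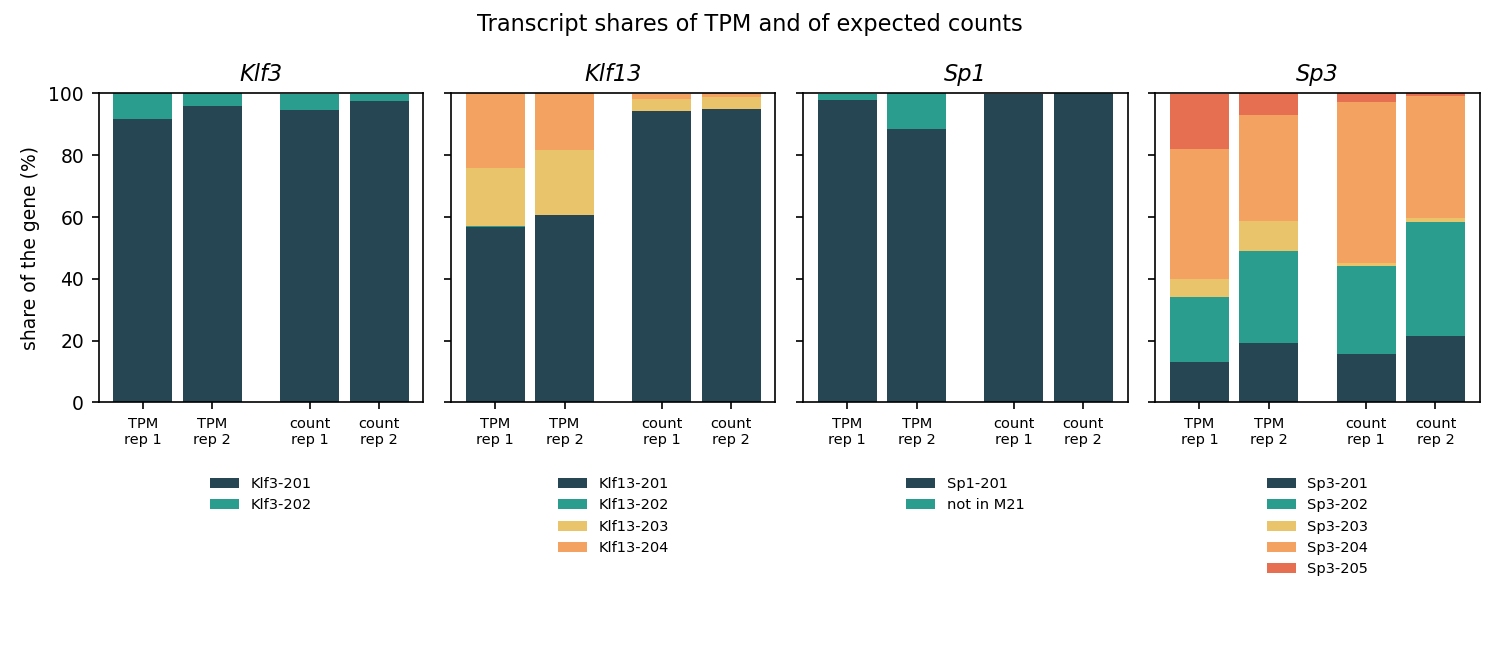
Share (%) of each gene's TPM (left pair of bars) and expected counts (right pair) held by its transcripts in replicates 1 and 2, for Klf3, Klf13, Sp1 and Sp3; transcripts at 0.2% or less in every bar are left out. Klf13-201 holds 56.8% and 60.7% of TPM but 94.4% and 94.9% of counts, and Sp3 is split between the upstream forms Sp3-201 and Sp3-202 and the downstream form Sp3-204.

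Member levels differed little between the libraries. On CPM (counts scaled to library size) with TMM factors, a correction for library composition, 8 members had mean counts of 100 or more. None of these (0 of 8) reached a 2-fold difference, where 2.1% of all 9777 genes tested did. No p was computed for this comparison of single libraries. The log2 ratio of replicate 2 to replicate 1 ran from -0.21 for Klf9 to 0.18 for Klf10, with Klf1 at 0.0055 and Klf6 at -0.019. The median absolute log2 ratio was 0.09 over the 8 members and 0.16 over all genes tested. A count of 0 in 8 is near the background share.

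**Figure D4:**
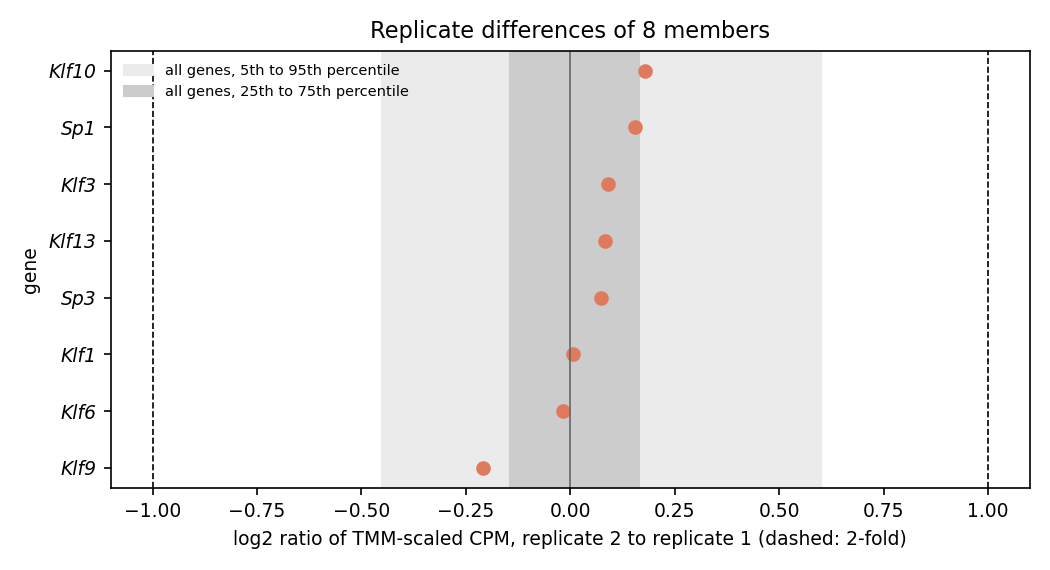
Log2 ratio of TMM-scaled CPM, replicate 2 to replicate 1, for 8 members (points), with the 25th to 75th percentile of all 9777 genes tested in dark grey (-0.15 to 0.16) and the 5th to 95th in light grey (-0.45 to 0.60). Klf9 at -0.21 and Klf10 at 0.18 lie just outside the dark band and the other 6 lie within it.

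Among the whole KLF and SP family of 26 genes, the 10 members held 93.5 ± 0.353% of the summed TPM. Klf1 alone held 26.8 ± 0.196%, Klf6 24.1 ± 0.251%, Sp3 16.4 ± 0.368% and Klf13 11.8 ± 0.0562%. KLF genes together held 75.1% and SP genes 24.9% on average. Of the 26 genes, 9 reached 1 TPM in both libraries (34.6%), which is close to the 36.3% of all protein-coding genes, and 8 had 0 counts in both (30.8%, against 29.3%). Of the members, 7 of 10 reached 1 TPM. Outside the list, Sp4, an SP factor best known from neurons, was at 3.53 and 3.11 TPM, and Klf11, a close relative of Klf10, was at 2.19 and 1.73 TPM. Klf11 exceeded Klf10 3.90-fold (log2 1.96 ± 0.32). Klf5, Klf12, Klf15, Klf17, Sp5, Sp6 and Sp7 had 0 counts in both libraries.

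Cofactors of the family were present. All 11 coactivators listed reached 1 TPM in both libraries (median 5.39 TPM). Of all protein-coding genes 36.3% did (median 0.02 TPM). Gtf2h1, a TFIIH subunit, was at 61.8 and 56.4 TPM, Smarce1, a subunit of the SWI/SNF remodeller, at 39.2 and 39.0 TPM, the acetyltransferase Kat2b at 18.5 and 19.5 TPM, and Ep300 at 7.17 and 6.84 TPM. Of 11 corepressors, 9 reached 1 TPM (median 5.11 TPM). Ncor1 was at 40.8 and 37.4 TPM, Sin3b at 27.4 and 25.98 TPM, Ctbp1, the partner of KLF3, at 13.2 and 13.7 TPM and Hdac2 at 9.78 and 10.2 TPM. Fhl3, another KLF3 partner, was at 0.09 and 0.46 TPM.

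Genes known as KLF1 targets were mostly expressed. Of 27, 22 reached 1 TPM in both libraries (81.5%, against 36.3% of protein-coding genes), with a median of 13.5 TPM against 0.02 TPM. The adult beta globin genes Hbb-bs and Hbb-bt were at 985 and 1629 TPM and at 187 and 242 TPM in replicates 1 and 2. Tfrc, the transferrin receptor, was at 165 and 209.8 TPM and Blvrb, a biliverdin reductase, at 150.4 and 147 TPM. Klf8, a family gene that KLF1 activates and KLF3 represses, had 0 and 2 counts, and Aqp1 had 0 and 20 counts. Klf1 differed by a log2 ratio of 0.0055 between the libraries. Of its targets, 20 of the 24 with enough counts were higher in replicate 2 (50.7% of all genes were), with a median log2 ratio of 0.36. Several other lists leaned the same way. Of erythroid markers 9 of 10 did (median 0.29), and some of these, such as Hbb-bs and Tfrc, are also in the target list. So did 6 of 6 SP1 and SP3 targets (median 0.26) and 4 of 6 genes listed for GATA1 and its partners (median 0.21). Corepressors leaned less (7 of 9, median 0.072). The coactivators (6 of 11, median 0.0059), TGF-beta pathway (2 of 6, median -0.077) and glucocorticoid pathway (2 of 6, median -0.031) did not. Among the 24 KLF1 targets, 3 passed the 2-fold mark, where 2.1% of all genes passed it. These include E2f2 (1.01 and 2.19 TPM) and Rhag (2.14 and 5.37 TPM). E2f2 and Rhag were named after their values were seen, and the part that culture stage, depth or any other difference between the libraries plays was not tested.

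Pathway genes around the low members varied. The counts below stand against 36.3% of all protein-coding genes at 1 TPM or more in both libraries. For KLF10, 6 of 10 TGF-beta pathway genes reached 1 TPM, with Smad2 at 9.74 and 10.4 TPM, Tgfbr1 at 6.64 and 6.67 TPM, the ligand Tgfb1 at 4.80 and 4.91 TPM and Smad4 at 4.83 and 3.54 TPM. The second receptor chain, Tgfbr2, had 2 and 4 counts, and Smad7, an inhibitor that KLF10 represses, had 0 and 5. For KLF9, 3 of 6 glucocorticoid pathway genes reached 1 TPM. The receptor Nr3c1 was at 8.01 and 7.71 TPM, Sgk1 at 6.81 and 6.36 TPM and Tsc22d3 at 6.56 and 6.26 TPM. Per1 was at 1.42 and 0.80 TPM, Fkbp5 at 0.17 and 0.44 TPM and Dusp1 at 0.73 and 0.47 TPM. Of 7 genes tied to KLF2, only the integrin chain Itgb7 reached 1 TPM in both (10.5 and 11.7 TPM). S1pr1 was at 1.41 and 0.97 TPM, so 2 of 7 reached it in replicate 1 alone. Thbd had 1 and 3 counts, and the embryonic globin genes Hbb-bh1 (44 and 51 counts) and Hbb-y (11 and 18 counts) were under 1 TPM. Of 3 genes known to be repressed by KLF3, C1qtnf12 was at 15.7 and 14.8 TPM, Lgals3 at 0.07 and 0.05 TPM, and Klf8 is given above.

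Of 7 genes with well-studied GC box promoters that SP1 and SP3 bind, 5 reached 1 TPM in both libraries (median 6.47 TPM). Of all protein-coding genes 36.3% did (median 0.02 TPM). Odc1, the rate-limiting enzyme of polyamine synthesis, was at 65.0 and 81.8 TPM. Tk1, a thymidine kinase of S phase, was at 3.37 and 9.56 TPM (log2 ratio 1.34), and Tert had 0 counts. Of the 6 listed genes with enough counts, only Tk1 passed the 2-fold mark between libraries, where 2.1% of all genes tested did. All 6 genes listed for GATA1 and its partners, which include Gata1 itself and Gata2, reached 1 TPM. Lmo2, Gata1, Zfpm1 and Ldb1 were each between 14.1 and 82.7 TPM. Klf1 was therefore below Lmo2, Gata1 and Zfpm1 and above Ldb1 in both libraries. Gata1 reads of the introduced fusion and of the chromosomal gene cannot be told apart in these tables.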

How the data were processed

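Members and gene lists were chosen with earlier results of these data known. The authors deposited expected counts, TPM, posterior mean TPM, FPKM and credible bounds per gene and transcript, with the percent of a gene's TPM per transcript, per the file headers. Text lists deposited beside them name GENCODE M4 on assembly mm10. For the program, the aligner and the use of strand, the entry is: not given in the sources used here. Gene symbols, transcript types, starts and coordinates came from GENCODE M21 (GRCm38), joined on identifiers without version: 42462 of 43346 Ensembl rows matched. A further 26248 rows with numeric identifiers, at most 2.9e-05% of a library's counts, and 97 other rows with 0 counts were left out.

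Per the labels, each library was made from 100 ng of RNA (sizes 200 to 1000). A gene was called expressed at 1 TPM or more in both libraries. Neighbours in the order were set apart where the log2 TPM ratio had 1 sign in both libraries and a mean above its SD. Replicate differences were log2 ratios of CPM scaled by TMM (edgeR 4.0.16 in R 4.3.3, prior count 0.5) over genes averaging 100 counts or more, with no p. The calculation was checked on simulated counts with a smaller spread between libraries than was estimated for these. That check does not give the share of unchanged genes that would pass the 2-fold mark here. Size factors from DESeq2 1.42.0 served as an alternative, and pandas 2.3.3 and numpy 2.4.6 in Python 3.11 did the rest. Named genes were the 10 members, the other family genes expressed or at 0 counts, and from each list the 4 highest by mean TPM and as many as 2, those with the lowest mean, under 1 TPM in both libraries. E2f2, Rhag, Epor, Slc4a1, Sp3os, Gm20033 and the family genes under 1 TPM fall outside it, picked with their values already seen. Some genes that the rule or a count covers are not reported here. Finger stretches were found by translating transcripts and matching a C2H2 pattern.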

Additional observations from a re-analysis of the deposited data

How the results depend on the processing

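No paired analysis was possible because the 2 libraries form 1 group. With 2 libraries no SD has more than 1 degree of freedom. All 7 neighbouring pairs kept their direction with posterior mean TPM. They also did with FPKM, log2(TPM + 1) and either library alone, but there the outcome was fixed. FPKM and log2(TPM + 1) keep the order within a library, and each pair already had 1 sign in both libraries. On undivided counts 5 of 7 kept it, with coding-typed transcripts 6 of 7, and with the transcript of most counts 5 of 7. The last 2 settings were chosen after seeing the data. The log2 ratios that turned were Klf1 over Klf6 (-1.44) and Klf3 over Sp1 (-1.11) on counts, Sp3 over Klf13 with coding-typed transcripts (-0.49) and with the transcript of most counts (-0.15, within its SD of 0.30), and Klf13 over Klf3 with the latter (-0.0450). These scales differ by length or by the transcripts kept. The summed level of the 10 members went from 97.0 TPM to 328 in FPKM, 681 with nuclear protein-coding genes alone rescaled to the full TPM total, 84.2 with coding-typed transcripts and 80.6 with the transcript of most counts. At 5 TPM, 5 family genes were counted in place of 9. With nuclear protein-coding genes alone rescaled to the full TPM total, 12 of 26 family genes reached 1 and Klf10 stood at 3.51. On that scale 6 of 6 glucocorticoid pathway genes reached 1 in place of 3, and 3 of 7 genes tied to KLF2 in place of 1. The share of all coding genes was computed neither at 5 TPM nor at 1 or more on the rescaled scale. These counts therefore have no background beside them. With no count minimum, 1 of 10 members passed the 2-fold mark in place of 0 of 8: Klf2, on 2 and 0 counts, where 19.8% of all 43346 genes passed it. Over all genes the mark was passed by 205 in the main setting, 90 on log2(TPM + 1), 990 with a minimum of 10 counts and 8564 with none. The common biological coefficient of variation over all genes, from edgeR with an intercept only, was 17.2%, and 22.8% without a filter on low counts. The values for single genes, pairs, transcripts and lists were also read under other settings. Of these, 241 stayed within 1 SD, kept direction or stayed within 1.5 times of the main count and 50 moved further. This tally does not measure stability. For levels and shares, either library alone lies within 1 SD of the mean of 2 by construction. Some moves, such as those to FPKM, only change the unit.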

Other observations

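Other family genes lay under or around 1 TPM and differed in how evenly the libraries showed them. Klf16 was at 0.84 and 1.07 TPM (426 and 375 counts) and Sp2 at 0.34 and 0.40 TPM (198 and 154 counts). Sp9, a factor known from forebrain development, had 17 counts in replicate 1 and 4 in replicate 2, listed as 0.18 and 0.01 TPM. All 17 lay on Sp9-202, a form of 656 bases, and all 4 on Sp9-201, of 4514 bases. Klf7 had 0 and 5 counts, Klf14 2 and 0, and Sp8 0 and 3, which is too few for a ratio.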
